A study of Mus musculus with 37 samples.

Results

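The mitochondrial genome of the mouse holds 37 genes, and their transcripts were followed here in single oocytes at 3 stages of meiosis: prophase arrest with an intact germinal vesicle (GV), the first metaphase (MI) and the second metaphase (MII). The members are all genes whose GENCODE symbol starts with mt-. They are 13 protein-coding genes (called mRNAs here), 2 rRNAs and 22 tRNAs, 37 of the 54752 genes that remain of 54844 features once the 92 ERCC spike-in RNAs are left out. All 37 stand in both deposited gene tables, of RSEM and of HTSeq counts. The study sequenced 37 oocytes of C57BL/6 females of 6 to 8 weeks, each as a library of its own, by Smart-seq2 with the KAPA HyperPlus kit and paired reads of 150 bases. Females received 5 IU of PMSG and 5 IU of hCG at an interval of 48 h. Collection differed by stage, with ovulated MII oocytes from the oviduct (15 h from hCG) and GV oocytes from the ovary (48 h from PMSG). MI oocytes were GV oocytes without cumulus cells that were kept for 8 h in M16 medium, so that MI was reached in culture and MII in the animal. The study describes removal of zona pellucida and polar body before lysis, without naming the stages that had a polar body to remove.

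The labels put the oocytes into 2 batches. Batch A held 6 GV and 6 MII oocytes, and batch B held 10 GV and 15 MI oocytes. MI and MII oocytes thus shared no batch, and each stage was compared with the GV oocytes of its own batch. The question of each comparison was how mitochondrial RNA stood relative to the other RNA of the oocyte as meiosis resumed, and in batch A also relative to added ERCC RNA.

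Mitochondrial DNA is transcribed from both strands into long precursors, and the tRNAs that lie between the other genes are excised to release the mRNAs and rRNAs. The mRNAs code for membrane subunits of respiratory complexes I, III and IV and of the ATP synthase, and the rRNAs build the mitochondrial ribosome that translates them. A fully grown oocyte silences its nuclear genes and passes its large stock of mitochondria to the embryo.

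In batch A, RSEM assigned 7509875, 10014033 and 12648629 counts to genes in the lowest, median and highest GV oocyte, and 9930485, 10509159 and 13988444 in MII oocytes. In batch B the lowest, median and highest totals were 7184205, 11548242 and 17724506 at GV and 2709280, 12840734 and 19390128 at MI. ERCC counts ran from 44663 to 128319 in GV and from 120280 to 143062 in MII oocytes of batch A. In batch B they were at most 32, so that no value per ERCC count was computed there. All 13 oocyte markers were counted in each group, with Gdf9, a growth factor secreted by oocytes, as the most abundant. Their summed level was lower at MII (9105 to 12270 counts per 1000000 gene counts, CPM) than at GV in batch A (13930 to 25720 CPM), without overlap. In batch B the sums overlapped, at 4561 to 8665 CPM in GV and 3235 to 7482 CPM in MI oocytes. The 15 cumulus and granulosa cell markers summed to at most 58.9 CPM in any oocyte, with overlapping groups and with Ptx3 and Cd44 at 0 in all GV oocytes of batch A and Amh, Foxl2, Ptx3 and Cd44 at 0 in all of batch B. Their most abundant gene was Cyp19a1 in GV and MII oocytes and Nr5a2 in MI oocytes. The overlap of the sums does not hold for each marker. By the edgeR test described below, Gja1 was lower at MI than at GV in batch B (log2 change -3.42, adjusted p = 0.0174). There Nr5a2 (0.75, adjusted p = 0.272), Has2 (1.21, adjusted p = 0.67) and Cyp19a1 (-0.22, adjusted p = 0.742) missed the test. The 8 blood and immune markers summed to at most 15.6 CPM, with Cd68 highest in batch A, Hbb-bs highest in batch B, and Lyz2 and Cd74 at 0 in all groups but MII. The part of these markers in the mitochondrial values was not tested.

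The share of all gene counts that fell on mitochondrial genes was higher at MII than at GV in batch A and lower at MI than at GV in batch B, with overlapping groups in both. In batch A the 37 genes took 1.42, 1.61 and 2.50% of counts in the lowest, median and highest GV oocyte and 1.94, 2.99 and 3.79% in MII oocytes. Of the 6 MII oocytes, 4 lay above every GV oocyte. Mean shares of 1.84% ± 0.486 in GV and 2.86% ± 0.728 in MII oocytes (each with SD, n = 6) gave a ratio of 1.55. In batch B the shares were 1.53, 2.01 and 2.99% in GV and 1.12, 1.63 and 1.97% in MI oocytes. Of the 15 MI oocytes, 7 lay below every GV oocyte. The means were 2.06% ± 0.435 (SD, n = 10) and 1.57% ± 0.294 (SD, n = 15), a ratio of 0.759. Nuclear rRNA, part of the total, held mean shares of 15.6% in GV and 21.7% in MII oocytes of batch A. In batch B its mean shares were 26.9% in GV and 28.3% in MI oocytes. By HTSeq the mean shares of nuclear rRNA were 5.08% in GV and 6.55% in MII oocytes of batch A. In batch B they were 7.52% in GV and 6.94% in MI oocytes, the other direction from RSEM. Without nuclear rRNA in the total, the ratios of the mitochondrial shares were 1.67 in batch A and 0.775 in batch B. The MI oocyte with the fewest counts, number 15, had 33225 mitochondrial counts of 2709280, or 1.23% (95% Wilson interval 1.21% to 1.24%). Such an interval covers counting error only, since the libraries carry no molecular identifiers.

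The shares of the mRNAs and of the rRNAs were also taken apart. In batch A the 13 mRNAs took 0.409, 0.529 and 0.666% of counts in GV oocytes and 0.651, 1.12 and 1.47% in MII oocytes (lowest, median and highest). All but 1 of the MII oocytes lay above the whole GV range, and the ratio of the means was 1.99. By HTSeq the mRNA shares were 0.479, 0.649 and 0.833% and 0.858, 1.41 and 1.83%, and there the groups did not overlap. The 2 rRNAs took 0.871, 1.15 and 1.84% in GV and 1.29, 1.87 and 2.31% in MII oocytes of batch A. Only 3 MII oocytes lay above the GV range, and the ratio of the means was 1.38. The rRNA count per mRNA count was 1.61, 2.60 and 2.90 in GV and 1.57, 1.69 and 1.98 in MII oocytes, with overlap. In batch B the mRNAs took 0.0809, 0.110 and 0.196% in GV and 0.0275, 0.0864 and 0.145% in MI oocytes, the rRNAs 1.43, 1.87 and 2.90% and 1.09, 1.53 and 1.89%. The groups overlapped for both, with 6 MI oocytes below all GV oocytes for the mRNAs and 7 for the rRNAs. The ratios of the means were 0.717 and 0.761. Counts of rRNA per count of mRNA were 10.2, 15.6 and 29.1 in GV oocytes of batch B, above all oocytes of batch A, and 9.99, 17.6 and 39.9 in MI oocytes. That difference between the batches was not tested.

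**Figure D1:**
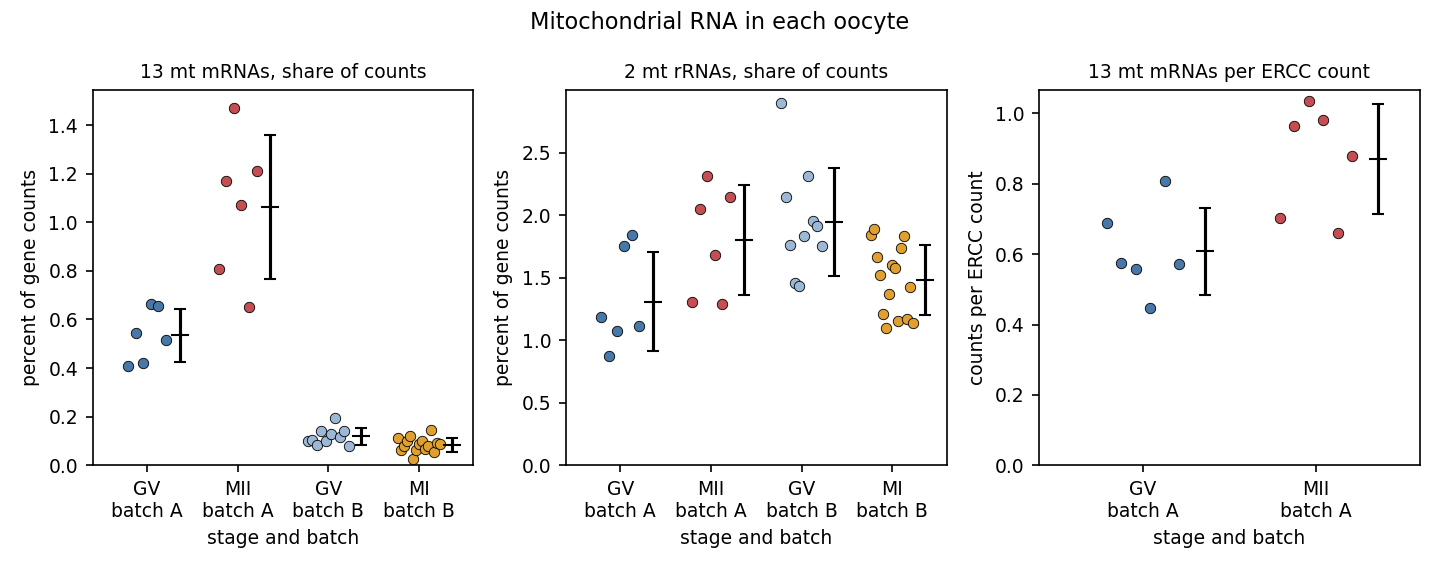
Share of gene counts (percent) of the 13 mt mRNAs and the 2 mt rRNAs by stage and batch, and counts of the mt mRNAs per ERCC count in batch A, with each point an oocyte and each bar the mean with its SD. The mRNA share reached 1.47% at MII against at most 0.666% at GV in batch A.

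Between GV and MII oocytes of batch A, the counts of nearly all mitochondrial mRNAs rose relative to those of the other genes, and none fell. Changes are given as log2 fold changes from an edgeR quasi-likelihood test over all genes with TMM scaling. Calls required a fold change over 2 together with an adjusted p (Benjamini-Hochberg, over all genes tested) under 0.05. Of the 37 mitochondrial genes 20 passed the filter on low counts and were tested, and 12 were called higher, all of them mRNAs, against 2.15% of the 12929 genes tested. By adjusted p alone 15 were higher, the 13 mRNAs and both rRNAs, against 9.06% of all genes. Over the 13 mRNAs the median log2 change was 1.28, and over all genes tested it was 0.01. The labels name no animal for any oocyte, so these p-values measure the spread between these oocytes and not between animals. The paper states that cytoplasmic polyadenylation would take place in maturing oocytes. Whether changes of poly(A) tails had a part in these counts was not tested.

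The result depends on the scale. All changes are relative to the other genes, and scaled to ERCC counts the median of all genes tested was -0.72, with 131 called higher and 3788 lower where TMM gave 278 and 817. With that scaling all 13 mRNAs kept a positive change, with a median of 0.61, and 0 of the 20 mitochondrial genes were called by edgeR, against 1.01% of all genes called higher. On this scale 6 of them were higher at an unadjusted p under 0.05, against 1.49% of all genes, and DESeq2 was not run. By adjusted p alone 4 were higher, against 1.11% of all genes. Scaled to total counts, which moved the median of all genes to -0.24, 6 mitochondrial genes were called higher, against 1.38% of all genes. There mt-Nd1 (0.92), mt-Co1 (0.77), mt-Co2 (0.99), mt-Atp6 (0.91) and mt-Nd6 (0.91) passed the test but not the fold threshold, and mt-Nd4l (adjusted p = 0.0803), mt-Rnr1 (0.47, adjusted p = 0.147) and mt-Rnr2 (0.46, adjusted p = 0.129) missed the test. By adjusted p alone 12 were then higher, all of them mRNAs, against 2.71% of all genes.

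Complex I, the NADH dehydrogenase that passes electrons to ubiquinone, has 7 subunits coded in mitochondrial DNA. mt-Nd1 (chrM:2751-3707), a subunit at the ubiquinone site, stood at 305, 580.4 and 889.7 CPM in GV oocytes and 560.2, 1158 and 1591 CPM in MII oocytes. Of the MII oocytes 4 lay above all GV oocytes, and the log2 change was 1.17 (SE 0.25, adjusted p = 0.00374). mt-Nd2 (chrM:3914-4951), a proton-pumping subunit, had 136, 198 and 213 CPM in GV oocytes and 285, 446 and 549 CPM in MII oocytes. No MII oocyte overlapped the GV range, and the gene rose by 1.44 (SE 0.14, adjusted p = 1.05e-05). mt-Nd4 (chrM:10167-11544), another proton-pumping subunit, was at 468, 534 and 711 CPM in GV oocytes and 848, 1364 and 1708 CPM in MII oocytes. The groups did not overlap here either, with a change of 1.44 (SE 0.16, adjusted p = 1.74e-05). mt-Nd5 (chrM:11742-13565), at the far end of the membrane arm, gave 378, 401 and 513 CPM in GV oocytes and 663, 972 and 1132 CPM in MII oocytes. All 6 MII oocytes were above all GV oocytes, and the change was 1.37 (SE 0.14, adjusted p = 1.13e-05).

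The smaller subunits of complex I had lower counts. mt-Nd3 (chrM:9459-9806), a membrane subunit near the junction with the peripheral arm, had 8.73, 20.2 and 36.8 CPM in GV oocytes and 31.2, 48.3 and 71.8 CPM in MII oocytes. Again 4 MII oocytes exceeded the GV range, and the change was 1.44 (SE 0.31, adjusted p = 0.00456). mt-Nd6 (chrM:13552-14070), the only mRNA of the other strand, counted 144, 189 and 219 CPM in GV oocytes and 289, 351 and 382 CPM in MII oocytes. All MII oocytes were above all GV oocytes, with a change of 1.15 (SE 0.13, adjusted p = 2.96e-05). Since Smart-seq2 libraries do not mark the strand, mt-Nd6 and RNA of the opposite strand at that place cannot be told apart. mt-Nd4l (chrM:9877-10173), a small membrane subunit, reached 0, 3.96 and 11.6 CPM in GV oocytes and 5.71, 9.21 and 40.2 CPM in MII oocytes. Of the GV oocytes 1 had no count, 2 MII oocytes exceeded the GV range, and the change was 1.92 (SE 0.67, adjusted p = 0.0498). That call was not made by DESeq2 (adjusted p = 0.0724). It also ended when GV oocyte 1, 4, 5 or 6 was left out (adjusted p = 0.0826, 0.0941, 0.102 and 0.0612) or MII oocyte 2, 3, 4 or 5 (0.0831, 0.141, 0.0535 and 0.0606). The gene overlaps mt-Nd4 by 7 bases and shares nearly all its sequence with a nuclear copy, so its own level is uncertain.

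Complex III, which passes electrons from ubiquinol to cytochrome c, has a single subunit from this genome. mt-Cytb (chrM:14145-15288), the cytochrome b that holds both quinone sites, stood at 672, 1182 and 1561 CPM in GV oocytes and 1351, 2772 and 3609 CPM in MII oocytes. In 5 of 6 MII oocytes it exceeded every GV oocyte, and the gene rose by 1.38 (SE 0.22, adjusted p = 0.00043).

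Complex IV, cytochrome c oxidase, has its 3 core subunits coded here. mt-Co1 (chrM:5328-6872), which holds the site of oxygen reduction, was at 553, 965 and 1563 CPM in GV oocytes and 934, 1808 and 2495 CPM in MII oocytes. Of the MII oocytes 4 lay above the GV range, and the change was 1.01 (SE 0.24, adjusted p = 0.0074). Its fold change was close to the threshold and fell under it without GV oocyte 1 (log2 0.89) or 3 (0.93), without MII oocyte 3 (0.88), 4 (0.998) or 6 (0.96), and with the counts of nuclear copies added (0.98). mt-Co2 (chrM:7013-7696), which takes electrons from cytochrome c, had 212, 284 and 382 CPM in GV oocytes and 423, 563 and 799 CPM in MII oocytes. Here no MII oocyte overlapped the GV range, and the change was 1.23 (SE 0.17, adjusted p = 0.000113). mt-Co3 (chrM:8607-9390), the core subunit without a redox centre, gave 319, 401 and 458 CPM in GV oocytes and 458, 551 and 860.2 CPM in MII oocytes. The groups lay just apart, and the change of 0.87 (SE 0.15, adjusted p = 0.00101) passed the test but not the fold threshold. By HTSeq the log2 change of mt-Co3 was 2.09 and it was called, on a mean of 41.3 counts per GV oocyte. With the counts of nuclear copies added its change was 0.75 (adjusted p = 0.0121), under the fold threshold. The groups then overlapped, with 3 MII oocytes above the GV range.

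The ATP synthase has 2 subunits from this genome, whose genes overlap by 43 bases. mt-Atp6 (chrM:7927-8607), which forms the path of protons beside the rotor, stood at 343, 495 and 739 CPM in GV oocytes and 592, 875 and 1414 CPM in MII oocytes. Of the MII oocytes 4 lay above all GV oocytes, and the change was 1.14 (SE 0.22, adjusted p = 0.00196). mt-Atp8 (chrM:7766-7969), a small subunit of the stator, had 19.2, 37.2 and 55.2 CPM in GV oocytes and 35.1, 86.5 and 117 CPM in MII oocytes. Again 4 MII oocytes exceeded the GV range, with a change of 1.28 (SE 0.27, adjusted p = 0.00365). Reads within the shared bases cannot be told apart between the pair.

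With HTSeq counts, 13 of 31 mitochondrial genes tested were called higher, all of them mRNAs, against 0.753% of 13409 genes. Over the 13 mRNAs the median log2 change was then 1.43. Of the 12 genes called with RSEM counts, 10 (all but mt-Co1 and mt-Nd4l) were called in each of the 12 fits that left out an oocyte.

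Both rRNAs were higher at MII, by less than a fold change of 2. By RSEM nuclear rRNA also held a higher mean share of counts at MII (21.7%) than at GV (15.6%), with 3 MII oocytes above the GV range. By HTSeq those means were 6.55% and 5.08%. Whether these rises were linked was not tested. mt-Rnr1 (chrM:70-1024), the rRNA of the small ribosomal subunit, stood at 1662, 3213 and 4239 CPM in GV oocytes and 2932, 4385 and 5828 CPM in MII oocytes. Of the MII oocytes 3 lay above the GV range, and the change of 0.70 (SE 0.21, adjusted p = 0.0247) passed the test but not the fold threshold. It failed the test when GV oocyte 3 (adjusted p = 0.0501) or MII oocyte 3 (0.0555) was left out. mt-Rnr2 (chrM:1094-2675), the rRNA of the large subunit, had 7050, 8335 and 14552 CPM in GV oocytes and 9665, 14262 and 17305 CPM in MII oocytes. Here too 3 MII oocytes exceeded the GV range, with a change of 0.70 (SE 0.19, adjusted p = 0.015). The count of mt-Rnr2 per count of mt-Rnr1 was 2.13, 3.25 and 4.24 in GV and 2.83, 3.23 and 3.40 in MII oocytes. All MII oocytes lay within the GV range. With total counts neither rRNA passed the test. Scaled to the summed counts of the 13 mRNAs, the log2 change in batch A was -0.54 (SE 0.20, adjusted p = 0.0221) for mt-Rnr1 and -0.51 (SE 0.15, adjusted p = 0.00565) for mt-Rnr2. On that scale 80.9% of all genes were lower by adjusted p alone. In batch B the changes on that scale were 0.17 (adjusted p = 0.578) and 0.14 (adjusted p = 0.645).

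The 22 tRNA genes, 59 to 75 bases long, carry the amino acids for mitochondrial translation. RSEM gave them few counts, and 5 of the 22 passed the filter in batch A, with 0 called by edgeR, 0 at an unadjusted p under 0.05 (against 34.3% of all genes) and 0 by DESeq2. Their log2 changes ran from -0.24 for mt-Tc to 0.50 for mt-Ts1. The tRNA with the most RSEM counts was mt-Te, for glutamate, with 12, 45 and 77.0 counts in GV and 17, 38 and 56 in MII oocytes (lowest, median and highest). The groups overlapped, and the change was -0.16 (adjusted p = 0.851). mt-Ta, for alanine, had 4, 21.03 and 33 counts in GV and 4, 20 and 42 in MII oocytes. mt-Ts1, for serine, had 7, 11.5 and 19.96 and 9, 16.5 and 25 counts. Both overlapped between the stages. HTSeq counted mt-Te far more often, at 3413, 12692 and 18923 in GV and 6485, 12974 and 18677 in MII oocytes. There again the groups overlapped. In batch B HTSeq gave mt-Te 2, 7 and 75 counts in GV and 0, 1 and 19 in MI oocytes, below all oocytes of batch A. The tRNAs together held 0.322% of HTSeq counts in GV and 0.297% in MII oocytes of batch A (means). RSEM placed 0.00193% and 0.00164% of its counts on them. Scaled to the summed counts of the 13 mRNAs, 3 tRNAs were called lower at MII, as were 60.7% of all genes. They were mt-Ti (-1.26, adjusted p = 0.0369), mt-Tc (-1.51, adjusted p = 0.0238) and mt-Te (-1.45, adjusted p = 0.0116). Reads of a tRNA and of a longer RNA that spans it cannot be told apart in these counts.

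**Figure D2:**
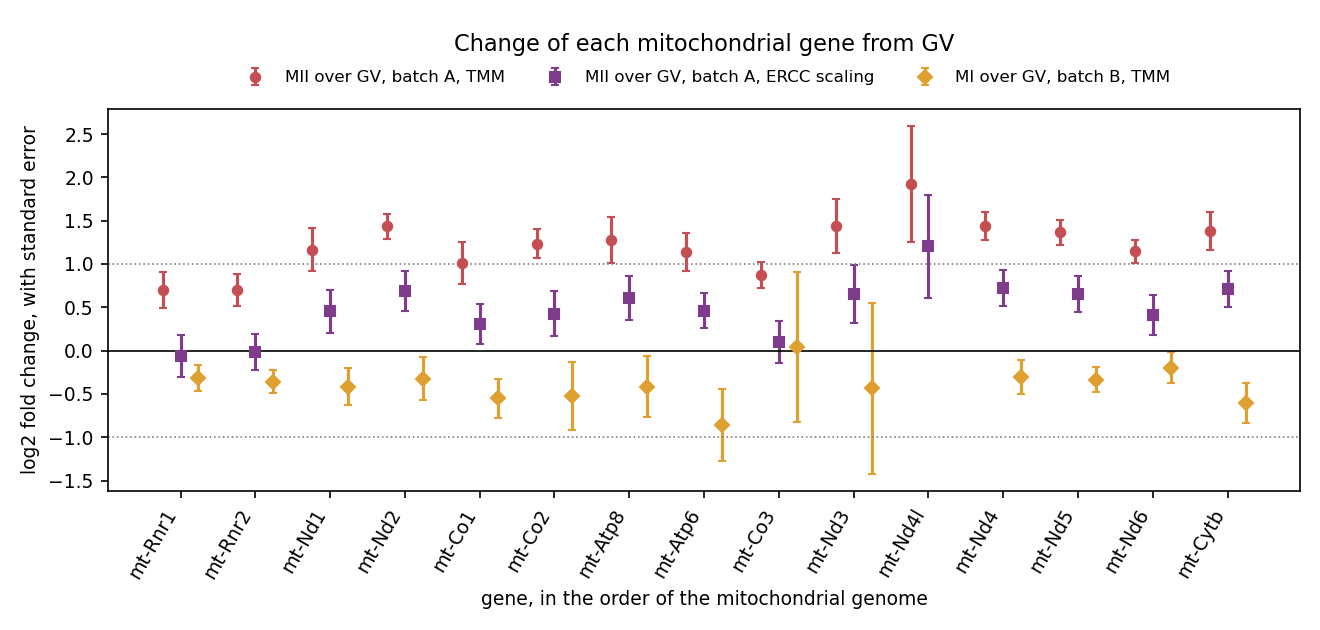
Log2 fold change from GV, with its standard error, of the 13 mt mRNAs and 2 mt rRNAs in the order of the mitochondrial genome, for MII in batch A (TMM and ERCC scaling) and for MI in batch B (TMM). Dotted lines mark a fold change of 2 in either direction, and the TMM changes at MII run from 0.70 to 1.92.

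Per ERCC count, 4 mRNAs passed the test as higher at MII, and neither rRNA did. All 37 genes together gave 1.501, 1.90 and 3.08 counts per ERCC count in GV and 1.84, 2.48 and 2.67 in MII oocytes of batch A. The groups overlapped, and the means of 2.12 ± 0.631 and 2.35 ± 0.359 (SD, n = 6 each) had a ratio of 1.11. The 13 mRNAs gave 0.448, 0.573 and 0.807 in GV and 0.659, 0.921 and 1.04 in MII oocytes. Above the GV range lay 4 MII oocytes, and the ratio of the means was 1.43. The rRNAs gave 0.924, 1.33 and 2.27 and 1.14, 1.55 and 1.69 per ERCC count, with overlap and a ratio of means of 0.981. All gene counts per ERCC count were 67.2, 117 and 168 in GV and 70.5, 84.8 and 101 in MII oocytes. Those groups overlapped as well, with a ratio of means of 0.713.

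Of single genes on this scale, mt-Nd4 had 47.8, 60.2 and 82.6 counts per 1000 ERCC counts in GV and 85.8, 106 and 133 in MII oocytes. The groups did not overlap, and with ERCC scaling the log2 change was 0.72 (SE 0.21, adjusted p = 0.0085). mt-Cytb had 105, 123 and 159 per 1000 ERCC counts in GV and 137, 217 and 254 in MII oocytes. Of the latter 5 lay above the GV range, with a change of 0.71 (SE 0.21, adjusted p = 0.00878). mt-Nd5 stood at 34.5, 48.4 and 64.2 and 64.1, 77.2 and 89.7 per 1000 ERCC counts. Again 5 MII oocytes exceeded the GV range, and the change was 0.65 (SE 0.21, adjusted p = 0.0141). mt-Nd2 had 13.4, 20.4 and 33.6 and 28.8, 36.0 and 39.9 per 1000 ERCC counts. Here 3 MII oocytes exceeded the GV range, and the change was 0.69 (SE 0.23, adjusted p = 0.0199). mt-Atp6 had 49.7, 57.6 and 58.2 and 59.9, 76.3 and 99.6 per 1000 ERCC counts. Its groups did not overlap, but the change of 0.46 missed the test (adjusted p = 0.0659). mt-Rnr2 had 747, 1014 and 1795 and 841, 1194 and 1284 per 1000 ERCC counts. MII oocytes lay within the GV range, and the log2 change was -0.02, with -0.06 for mt-Rnr1. Of all genes tested on this scale, 30.3% were called in either direction, nearly all of them lower, where TMM gave 8.47%. With HTSeq counts scaled to ERCC, a combination chosen after seeing the data, mt-Co3 (1.24) and mt-Nd4l (1.95) were called higher and the tRNAs mt-Tl1 (-1.07) and mt-Tl2 (-1.17) lower, against 0.164% and 27.2% of all genes. With copies added and ERCC scaling, also chosen after seeing the data, mt-Atp6 (0.60, adjusted p = 0.0247), mt-Nd3 (0.75, adjusted p = 0.0347) and mt-Nd4l (0.86, adjusted p = 0.0112) passed the test as well. By adjusted p alone 7 mRNAs were then higher, against 1.12% of all genes.

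Between GV and MI oocytes of batch B, no mitochondrial gene passed the test. Nearly all changes were negative. Every mitochondrial gene overlapped between the stages, but the share of all genes that did so was not computed. Of the 37 genes 14 were tested (12 mRNAs and both rRNAs), and 0 were called by edgeR, where 0.121% of 12419 genes were called. At an unadjusted p under 0.05, 6 were lower and 0 higher, against 4.77% and 6.26% of all genes, and DESeq2 called 0, with 5 lower at that p, against 5.25%. Of the 14 changes 13 were negative, with a median of -0.39, and the median of all genes tested was 0.02. Without GV oocyte 7 the median of the 14 was -0.23. Only 2 of them were then lower at an unadjusted p under 0.05, as were 400 of 12625 genes. Leaving out any other single oocyte gave 4 to 7 lower. In complex I, mt-Nd5 had 145, 213 and 248 CPM in GV and 90.1, 144 and 221 CPM in MI oocytes. The ranges overlapped, and the log2 change was -0.33 (adjusted p = 0.36). mt-Nd1 had 54.3, 76.7 and 167 CPM in GV and 20.7, 61.4 and 125 CPM in MI oocytes. These overlapped too, with a change of -0.42. mt-Nd2 had 38.8, 54.8 and 131 CPM in GV and 8.24, 51.1 and 79.9 CPM in MI oocytes. mt-Nd4 had 93.4, 128 and 217 CPM in GV and 33.7, 102 and 189 CPM in MI oocytes. mt-Nd6 had 32.1, 42.2 and 52.5 CPM in GV and 22.2, 30.8 and 54.0 CPM in MI oocytes. All 3 overlapped between the stages, with changes of -0.32, -0.30 and -0.20. mt-Nd3 was at 0 in 5 of 10 GV and 8 of 15 MI oocytes, with at most 6.74 CPM in any, by RSEM counts. RSEM gave its copy Gm28438 67.2% and 54.1% of the summed counts of the pair in GV and MI oocytes. HTSeq counted mt-Nd3 in every oocyte of batch B, at 11, 38 and 62 in GV and 8, 17 and 85 in MI oocytes, with overlap and a log2 change of -0.45 (adjusted p = 0.913). By RSEM mt-Nd4l was at 0 in 8 of 10 GV oocytes and in all 15 MI oocytes, with 85.4% and 100% of the pair given to its copy Gm10222, so no fold change is given. HTSeq gave it 2, 10.5 and 18 counts in GV and 0, 6 and 16 in MI oocytes, with overlap and 1 MI oocyte at 0.

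The other mRNAs of batch B overlapped between the stages too. mt-Cytb, of complex III, had 151, 231 and 523 CPM in GV and 47.7, 159 and 315 CPM in MI oocytes. Its log2 change was -0.60 (adjusted p = 0.28), with overlap. In complex IV, mt-Co1 had 109, 156 and 337 CPM in GV and 27.5, 129.8 and 209 CPM in MI oocytes. mt-Co2 had 8.23, 73.8 and 117 CPM in GV and 0, 51.8 and 113 CPM in MI oocytes. mt-Co3 had 0, 22.8 and 91.4 CPM in GV and 0, 37.1 and 79.9 CPM in MI oocytes. The groups of all 3 overlapped, with 1 MI oocyte at 0 for mt-Co2 and 1 oocyte of each stage at 0 for mt-Co3, and the changes were -0.55, -0.53 and 0.04. The sign of mt-Co3 turned with HTSeq counts (-0.55), with copies added (-0.55) and without MI oocytes 4, 8 and 9 (-0.43). Of the ATP synthase subunits, mt-Atp6 had 55.7, 95.4 and 253 CPM in GV and 0, 47.0 and 132 CPM in MI oocytes. Its ranges overlapped, and the change of -0.86 had an adjusted p of 0.444. mt-Atp8 had 2.66, 5.32 and 9.87 CPM in GV and 0.369, 3.91 and 9.90 CPM in MI oocytes. It overlapped as well, with a change of -0.42. Of the rRNAs, mt-Rnr1 stood at 3656, 5472 and 6873 CPM in GV and 2835, 3981 and 5533 CPM in MI oocytes. The groups overlapped, and the change was -0.31 (adjusted p = 0.418). mt-Rnr2 had 10671, 13685 and 22079 CPM in GV and 7834, 11324 and 13774 CPM in MI oocytes. There was overlap again, with a change of -0.36 (adjusted p = 0.277). A p that misses the threshold does not show that the levels were equal.

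By the test of the difference, the change from GV to MII differed from the change from GV to MI for 12 mitochondrial genes. Among them is mt-Nd4l, which had no RSEM count at MI. The difference was tested as a contrast over all 37 oocytes, the MII change in batch A minus the MI change in batch B. Of 21 mitochondrial genes tested, 12 were called higher in this contrast and 0 lower, against 2.01% of 15083 genes. Over the 13 mRNAs the median difference was 1.82 on the log2 scale, and over all genes it was 0.04, with 303 called higher and 305 lower. mt-Nd5 showed a difference of 1.77 (SE 0.23, adjusted p = 3.15e-06). For mt-Nd4 it was 1.82 (SE 0.31, adjusted p = 0.000251), and for mt-Cytb 2.06 (SE 0.38, adjusted p = 0.000582). Also called were mt-Nd2 (1.84), mt-Nd1 (1.67), mt-Nd6 (1.42), mt-Co1 (1.65), mt-Atp8 (1.76), mt-Atp6 (2.08), mt-Rnr1 (1.10) and mt-Rnr2 (1.14). mt-Nd4l was called as well, on the 15 MI oocytes at 0 by RSEM counts. The RSEM change of mt-Nd4l from GV to MI thus has no value, and no conclusion is drawn from that call. By HTSeq the difference of mt-Nd4l was 3.04 (adjusted p = 0.0362). mt-Co2 (1.83, adjusted p = 0.0575), mt-Nd3 (1.90, adjusted p = 0.447) and mt-Co3 (0.89, adjusted p = 0.796) were not called. By HTSeq mt-Nd3 (2.13, adjusted p = 0.00693) and mt-Co3 (2.704, adjusted p = 0.0276) were called, and mt-Atp8 (adjusted p = 0.322) and mt-Atp6 (adjusted p = 0.332) were not. With total counts the calls of mt-Atp8 (adjusted p = 0.106) and mt-Atp6 (adjusted p = 0.0913) ended, and mt-Rnr1 (0.83) and mt-Rnr2 (0.86) did not reach a fold of 2. Scaled to the summed counts of the 13 mRNAs, 2 genes were called, mt-Nd4l higher and mt-Ta lower, against 0.862% and 64.7% of all genes. By RSEM counts mt-Ta was at 0 in all 10 GV and in 12 of 15 MI oocytes of batch B. Its change from GV to MI thus has no value, and no conclusion is drawn from its call. The call of mt-Atp6 was not made by DESeq2 (adjusted p = 0.0693) and ended without MII oocyte 1 (adjusted p = 0.056), which stands apart in the number of genes detected. With counts of nuclear copies added, an alternative chosen after seeing the data, all 13 mRNAs and both rRNAs were called, 15 of 21 genes tested against 2.01% of 15075 genes. Since MI and MII oocytes were in different batches, a change that differs between batches cannot be told apart from a change that differs between stages.

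Levels were compared between mRNAs as the median CPM per kilobase of gene length. By RSEM counts mt-Cytb had the highest level in all 4 groups, and mt-Nd3 and mt-Nd4l the lowest. By HTSeq mt-Cytb was also first in all 4 groups, but mt-Nd3 stood in place 8, above mt-Co2, mt-Co3, mt-Atp6, mt-Atp8 and mt-Nd4l. In GV oocytes of batch A the median levels were 1033 CPM per kilobase for mt-Cytb, 727 for mt-Atp6, 624.8 for mt-Co1 and 606 for mt-Nd1. Next came mt-Co3 at 511, mt-Co2 at 415, mt-Nd4 at 387 and mt-Nd6 at 364 CPM per kilobase. The lowest levels were those of mt-Nd5 (219.9), mt-Nd2 (191), mt-Atp8 (182), mt-Nd3 (57.9) and mt-Nd4l (13.3). Neighbours that stood in this order in all 6 oocytes were mt-Cytb above mt-Atp6, mt-Nd6 above mt-Nd5, mt-Nd5 above mt-Nd2, and mt-Nd3 above mt-Nd4l. The places of mt-Nd1 and mt-Co3, of mt-Co2 and mt-Nd4, and of mt-Nd4 and mt-Nd6 were held in 3 of 6 oocytes only, and that of mt-Nd2 above mt-Atp8 in 2 of 6.

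In MII oocytes mt-Cytb led with 2423 CPM per kilobase, followed by mt-Atp6 (1285), mt-Nd1 (1209.7), mt-Co1 (1170.2) and mt-Nd4 (990). Of the neighbours mt-Cytb was above mt-Atp6 in 6 of 6 oocytes and mt-Nd1 above mt-Co1 in 4 of 6. Compared with GV oocytes, mt-Nd4 stood in place 5 rather than 7 and mt-Co3 in place 7 rather than 5. Across the 13 genes the Spearman correlation between the median levels of both stages was 0.9725, where genes are not independent replicates. In GV oocytes of batch B mt-Cytb (202 CPM per kilobase) came before mt-Atp6 (140.1), mt-Nd5 (117), mt-Co2 (108) and mt-Co1 (101). Of these, mt-Cytb was above mt-Atp6 in 8 of 10 oocytes and mt-Co2 above mt-Co1 in 4 of 10. In MI oocytes mt-Cytb (139 CPM per kilobase) was above mt-Co1 (84.0) in all 15, and mt-Co1 was above mt-Nd5 (79.1) in 7 of 15. The correlation across the 13 genes was 0.9216 between GV and MI of batch B and 0.7582 between the GV oocytes of both batches. With the counts of nuclear copies added it was 0.9066 for the latter pair, and mt-Atp6 then stood first in all 37 oocytes, at a median of 1572 CPM per kilobase in GV and 3493 in MII oocytes of batch A. That alternative was chosen after seeing the data.

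**Figure D3:**
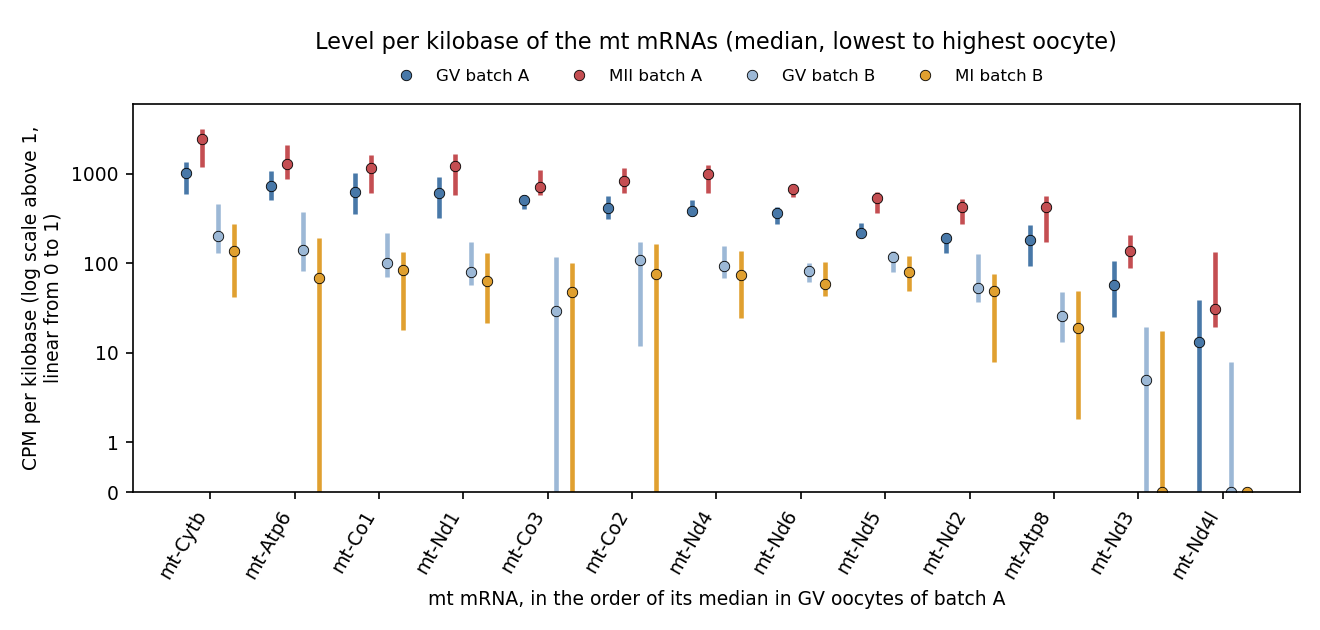
Median level of each mt mRNA in CPM per kilobase (points) with the lowest to the highest oocyte (bars), by stage and batch, on an axis that is logarithmic above 1 and linear from 0 to 1. mt-Cytb is highest in all 4 groups, from 139 in MI to 2423 in MII oocytes.

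Nuclear genes that act on the mitochondrial genome and its RNA were read from the same fits as a list of 42 genes. In batch A 40 were tested, 1 was called higher and 1 lower, against 2.15% and 6.32% of all genes, and the median log2 change was -0.01. Fastkd1, which binds mitochondrial RNA, had 17.6, 21.2 and 25.5 CPM in GV and 32.2, 37.3 and 45.4 CPM in MII oocytes. The groups did not overlap, and the change was 1.02 (SE 0.14, adjusted p = 0.000177). Without GV oocyte 1, 2 or 5, edgeR called 0 list genes higher, with 5, 8 and 7 higher at an unadjusted p under 0.05, against 15.9%, 16.4% and 15.1% of all genes. Tefm, the elongation factor of the mitochondrial RNA polymerase, had 1.62, 2.43 and 7.43 CPM in GV and 0.298, 0.773 and 1.19 CPM in MII oocytes. The groups did not overlap, and the gene fell, with a log2 change of -1.99 (SE 0.44, adjusted p = 0.00486). Scaled to ERCC counts, the change of Fastkd1 was 0.30 (adjusted p = 0.322) and that of Tefm -2.76. By adjusted p alone 4 list genes were higher and 2 lower, against 9.06% and 11.5% of all genes. Polrmt, the mitochondrial RNA polymerase, had 17.0, 27.5 and 45.6 CPM in GV and 13.8, 15.99 and 20.3 CPM in MII oocytes. The ranges overlapped, and the change was -0.57 (adjusted p = 0.0955). Tfam, which packages mitochondrial DNA and starts transcription, had 7.19, 13.3 and 23.3 CPM in GV and 3.57, 6.02 and 10.9 CPM in MII oocytes. It overlapped too, with a change of -0.86 (adjusted p = 0.0502). Tfb2m, an initiation factor, had 7.59, 12.2 and 14.2 CPM in GV and 10.7, 15.1 and 24.8 CPM in MII oocytes. The groups overlapped, and the change of 0.71 (adjusted p = 0.0268) passed the test but not the fold threshold.

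Among genes of RNA stability, Lrpprc, which keeps mitochondrial mRNAs stable, had 39.7, 51.6 and 66.9 CPM in GV and 32.7, 39.5 and 46.3 CPM in MII oocytes. Its change was -0.15 (adjusted p = 0.515), with overlap. Slirp, the partner of Lrpprc, had 4.88, 7.05 and 8.74 CPM in GV and 1.80, 3.81 and 4.45 CPM in MII oocytes. The groups did not overlap, but the change of -0.68 (adjusted p = 0.0821) missed the test. Mtpap, the mitochondrial poly(A) polymerase, had 69.4, 79.0 and 113 CPM in GV and 55.0, 93.4 and 120 CPM in MII oocytes. Pnpt1, an exoribonuclease, had 8.39, 11.4 and 16.2 CPM in GV and 8.29, 13.9 and 17.3 CPM in MII oocytes. Both overlapped between the stages, with changes of 0.37 (adjusted p = 0.117) and 0.39 (adjusted p = 0.19). Of the replication genes, the DNA polymerase Polg had 3.95, 8.27 and 10.7 CPM in GV and 2.04, 7.10 and 10.9 CPM in MII oocytes. The helicase Twnk had 13.5, 18.0 and 20.2 CPM in GV and 10.1, 13.7 and 15.1 CPM in MII oocytes. Both overlapped, with changes of 0.03 (adjusted p = 0.957) and -0.17 (adjusted p = 0.517). Scaled to ERCC counts, 10 of the 40 list genes were called lower, against 29.3% of all genes, and 0 higher, with 0 higher at an unadjusted p under 0.05, against 1.49% of all genes. In batch B edgeR called 0 of 40 list genes tested and DESeq2 0, with 6 higher and 0 lower at an unadjusted p under 0.05, against 6.26% and 4.77% of all genes, and the median log2 change was 0.11. The named genes ran there from -0.56 for Tfb2m to 0.78 for Polrmt. The MII change differed from the MI change for 0 of 40 list genes by edgeR and 0 by DESeq2, with 2 higher and 8 lower at an unadjusted p under 0.05, against 9.76% and 7.95% of all genes.

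Counts of several mitochondrial mRNAs are uncertain because nuclear DNA carries copies of them. Of the annotated nuclear genes, 11 matched the mitochondrial genome over at least 80% of their length with at least 95% identity. A run of 7 lies on chr1:24611535-24616197 (minus strand) and covers chrM:6390-11042, from mt-Co1 to mt-Nd4. The others are 3 on chromosome 2 and 1 on chromosome 13. The chromosome 1 copies of mt-Co2 (Gm28661, 681 bases), mt-Atp6 (Gm10925, 678 bases), mt-Co3 (Gm28437, 783 bases), mt-Nd4l (Gm10222, 294 bases) and mt-Nd4 (Gm28439, 876 bases) have 0 mismatches to them, so that no read within these bases can be placed by its sequence. The copies of mt-Nd3 (Gm28438, 345 bases) and mt-Co1 (Gm29216, 483 bases) have 1 mismatch each.

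**Figure D4:**
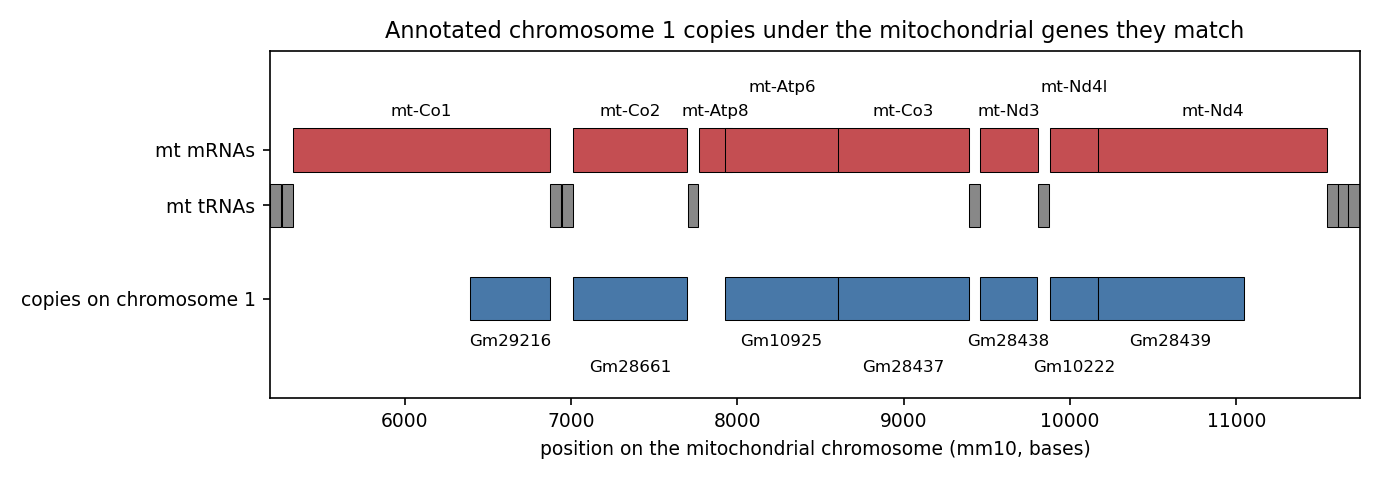
Annotated copies on chromosome 1 (lower bars) drawn at the positions of the mitochondrial chromosome that they match (mm10, bases), under the mt tRNAs and mRNAs. The copies cover chrM:6390-11042 from within mt-Co1 to within mt-Nd4.

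These bases show how little separates the genes from their copies. The windows are from GENCODE M21 transcripts on mm10, 5′ to 3′ in the sense of the mRNA, with mismatched bases in capitals. They are mt-Nd3 at chrM:9459-9488 (plus strand) with Gm28438 at chr1:24613090-24613119 (minus strand), which differ by T3C, and mt-Co1 at chrM:6390-6419 (plus strand) with Gm29216 at chr1:24616159-24616188 (minus strand), which differ by A1066T. Positions are counted from the first base of the mitochondrial gene, and its base comes first. A stretch of mt-Co1 at chrM:6020-6049 (plus strand) with Gm13340 on chromosome 2 at chr2:22588926-22588955 (minus strand) is added as a less similar copy, with 4 mismatches in 30 bases and 37 in 1545.
mt-Nd3: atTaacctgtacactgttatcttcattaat
Gm28438: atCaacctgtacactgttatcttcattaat
mt-Co1: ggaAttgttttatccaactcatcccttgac
Gm29216: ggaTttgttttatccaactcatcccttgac
mt-Co1: ccaGcaTctgttctgattctttggGcaCcc
Gm13340: ccaAcaCctgttctgattctttggAcaTcc

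RSEM divided the counts between gene and copy. Of the summed counts of mt-Atp6 and Gm10925, the copy held 53.5%, 58.3%, 48.3% and 62.1% in GV and MII of batch A and GV and MI of batch B. For mt-Nd4l with Gm10222 the copy held 83.3%, 78.8%, 85.4% and 100%. For mt-Co3 with Gm28437 it held 18.8%, 12.7%, 67.1% and 42.5%, and for mt-Co2 with Gm28661 35.4%, 27.2%, 35.0% and 28.0%. The copy of mt-Nd4 held at most 0.279%, although it too has 0 mismatches. Gm10925 had 443, 579 and 727 CPM in GV and 629, 1353 and 2041 CPM in MII oocytes. In MII oocytes 5 of 6 values were above the GV range, and the change was 1.42 (SE 0.21, adjusted p = 0.000331). Gm10222 had 12.1, 25.7 and 36.4 CPM in GV and 25.2, 61.7 and 78.7 CPM in MII oocytes. Again 5 MII oocytes were above the GV range, with a change of 1.48 (SE 0.28, adjusted p = 0.00192). Gm29216 had 156, 195 and 261 CPM in GV and 227, 287 and 398 CPM in MII oocytes. Here 4 MII oocytes exceeded the GV range, and the change of 0.79 (SE 0.16, adjusted p = 0.0027) did not reach a fold of 2. Gm28438 had 0, 9.38 and 18.8 CPM in GV and 11.0, 33.4 and 39.9 CPM in MII oocytes. Of the MII oocytes 4 lay above the GV range, and the change was 1.70 (SE 0.58, adjusted p = 0.0477). That call was not made by DESeq2 (adjusted p = 0.0912) or with total counts (adjusted p = 0.0858). It also ended without GV oocyte 1, 3, 4 or 5 or MII oocyte 2, 3, 4 or 6. By RSEM counts Gm28661 (0.67, adjusted p = 0.301) and Gm28437 (0.12, adjusted p = 0.947) were not called. By HTSeq Gm28661 was called, at 2.08 (adjusted p = 0.0122). Its HTSeq counts at MII had a mean of 321 but a median of 153, with 1164 in the highest oocyte. At GV the mean was 83.2, the median 90 and the highest count 105. With the counts of each copy added to the mitochondrial gene it covers most, an alternative chosen after seeing the data, 11 mitochondrial genes were called higher in batch A, against 2.12% of all genes, with mt-Atp6 at 1.299, mt-Co2 at 1.05, mt-Nd3 at 1.53 and mt-Nd4l at 1.56 (adjusted p = 0.000751).

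HTSeq counted few reads for mt-Co2, mt-Atp6 and mt-Co3, whose copies have 0 mismatches, but not for mt-Nd4, whose copy has 0 mismatches too. Mean counts per GV oocyte of batch A were 28.5 HTSeq and 2954 RSEM counts for mt-Co2. They were 63.7 HTSeq and 5172 RSEM counts for mt-Atp6. For mt-Co3 they were 41.3 HTSeq and 4021 RSEM counts. At mt-Atp8, which overlaps mt-Atp6, there were 9 HTSeq and 382 RSEM counts. More counts by HTSeq than by RSEM stood at mt-Cytb, with 29150 HTSeq and 11670 RSEM counts, and at mt-Nd1, with 14610 HTSeq and 5770 RSEM counts. mt-Nd4, with a copy over part of its length, had 6859 HTSeq and 5712 RSEM counts. For mt-Nd4l, with a copy of 0 mismatches over nearly all its length, they were 23.2 HTSeq and 50.4 RSEM counts. In GV oocytes of batch B mt-Nd4l had 10.8 HTSeq and 5.53 RSEM counts (means). How HTSeq treated reads that fit more than 1 place was not stated. In batch B, HTSeq left 3 of 15 MI oocytes and 0 GV oocytes at 0 for each of Gm10925, Gm28661, Gm29216 and Gm13340. Mean HTSeq totals there were 14670000 counts in GV and 12549000 in MI oocytes, and mean RSEM totals were 12473000 and 12446000. MI oocytes 4, 8 and 9, which were left out together in an alternative, all had 0 HTSeq counts of mt-Co2, mt-Atp6, mt-Atp8 and mt-Ta. Some other MI oocytes were at 0 for these genes too. mt-Co2, mt-Co3, mt-Atp6 and mt-Atp8 had positive log2 changes from GV to MII by both counts.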

How the data were processed

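RNA of 37 single oocytes was sequenced. The authors trimmed reads with Trim Galore 0.6.4 and aligned them to mm10 with GENCODE VM20 and ERCC sequences. The deposited RSEM table holds expected counts per gene (RSEM 1.3.1), and the deposited HTSeq table holds raw counts per gene (STAR 2.7.6a, HTSeq 0.12.4). Overlap mode and strand setting of HTSeq are not stated. Neither table was normalized, and the deposited transcript table was not used here. Gene symbols and positions came from GENCODE M21, which matched 54723 identifiers.

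RSEM expected counts rounded to whole numbers were tested with edgeR 4.0.16 (limma 3.58.1, R 4.3.3), with filterByExpr by group, TMM scaling and the quasi-likelihood test, once in each batch and once over all 37 oocytes with 4 groups of stage and batch. ERCC features were left out of totals and tests. A call needed a Benjamini-Hochberg adjusted p under 0.05 over all genes tested and a fold change over 2. CPM are counts per 1000000 gene counts. Shares, counts per ERCC count and levels per kilobase were described without a test. The pipeline was tested on simulated data. Nuclear copies were found with BLAST+ 2.17.0 (at least 95% identity over at least 80% of the length, e-value under 1e-10). Other values came from Python 3.11.15 with scipy 1.17.1, pandas 2.3.3 and numpy 2.4.6, and figures from matplotlib 3.10.9.

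All 13 mRNAs and both rRNAs were named with values. A tRNA was named when called or among the 3 with the highest mean RSEM count, and mt-Tc, mt-Ti, mt-Tl1 and mt-Tl2 were added after their values were seen. Of the 42 nuclear genes, Polrmt, Tfam, Tfb2m, Lrpprc, Slirp, Mtpap, Pnpt1, Polg and Twnk were named whatever they did, with the called members, at most 8 per comparison. Copies were named when their count reached 100 in an oocyte, at most the 5 with the highest mean. Gm28438, Gm28439 and Gm13340 were added for their sequences after values were seen. The members and lists were chosen with earlier results of these data known.

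Alternatives were no filter, RLE size factors, total counts, ERCC counts or mt mRNA counts as the scale, DESeq2 1.42.0, HTSeq counts, no fold threshold, a block of oocyte number, leaving out each oocyte, MII oocyte 1, or MI oocytes 4, 8 and 9, and other totals for the share. Adding the counts of nuclear copies, 2 combinations with ERCC scaling, and the rRNAs alone per ERCC count were chosen after seeing the data. Oocyte numbers do not mark pairs. The correlation of oocytes with the same number, after removing group means, ran from -0.33 to 0.34 in batch A and from -0.15 to 0.11 in batch B. Depth was 2709280 to 19390128 counts per oocyte, and no 2 libraries within a group of stage and batch were identical.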

Additional observations from a re-analysis of the deposited data

Results flagged for a closer look

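In batch B, a GV oocyte lay far from the others of its group for 4 genes, by a test of its gap to the nearest oocyte over the range of the group. GV oocyte 1 had 22100 CPM of mt-Rnr2 (gap 0.488 of the range). GV oocyte 7 had 131 CPM of mt-Nd2 (0.544), 217 CPM of mt-Nd4 (0.483) and 523 CPM of mt-Cytb (0.57). In all, 75 groups were tested, and chance gives about 1 in 20. Batch B had 0 mitochondrial calls, so none could be lost without these oocytes. At an unadjusted p under 0.05, 6 mitochondrial genes were lower at MI with all oocytes and 2 without GV oocyte 7. Over the 25 fits that left out an oocyte, the log2 change of mt-Nd2 ran from -0.44 to -0.057. It ran from -0.36 to -0.12 for mt-Nd4, from -0.68 to -0.33 for mt-Cytb and from -0.42 to -0.28 for mt-Rnr2.

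The change from GV to MII in batch A differed from the change from GV to MI in batch B for 12 mitochondrial genes by the test of the difference, all higher, against 2.01% of 15083 genes. The log2 differences were 1.10 for mt-Rnr1, 1.14 for mt-Rnr2, 1.67 for mt-Nd1, 1.84 for mt-Nd2, 1.65 for mt-Co1, 1.76 for mt-Atp8, 2.08 for mt-Atp6, 1.82 for mt-Nd4, 1.77 for mt-Nd5, 1.42 for mt-Nd6 and 2.06 for mt-Cytb. For mt-Nd4l, all 15 MI oocytes were at 0 by RSEM counts and no fold change is given. HTSeq left 1 of 15 MI oocytes at 0 for it and gave a difference of 3.04 (adjusted p = 0.0362).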

How the results depend on the processing

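In batch A, 12 mitochondrial genes were called, all higher. Shares of all genes called in the same direction follow in brackets. The count was 12 without a filter (2.43%), 12 with RLE size factors (2.19%), 11 with DESeq2 (2.11%), 13 with HTSeq counts (0.753%), 11 with added copies (2.12%), 15 without a fold threshold (9.06%) and 10 to 12 when leaving out each oocyte (1.24% to 2.53%). It was 6 with total counts (1.38%), 3, all lower, scaled to mt mRNA counts (60.7%), 0 scaled to ERCC counts (1.01%), 4 with HTSeq counts scaled to ERCC counts, 2 higher (0.164%) and 2 lower (27.2%), and 0 with copies added and ERCC scaling (1.01%). The last 2 and the added copies were chosen after seeing the data. In batch B the count was 0 under every alternative run (0 to 1.99% of all genes in either direction). For the MII change minus the MI change, 12 genes were called (2.01%), 11 without MII oocyte 1 (0.971%), 2 scaled to mt mRNA counts, 1 higher (0.862%) and 1 lower (64.7%), and 8 to 15 under the other alternatives (0.453% to 3.10%). The 2 called on the mt mRNA scale, mt-Nd4l and mt-Ta, were at 0 by RSEM counts in most oocytes of batch B. Of the nuclear list, 2 genes were called in batch A (8.47% in either direction), 1 without a filter (5.04%) and 10, all lower, with ERCC scaling (29.3%). A block of oocyte number gave 11 mitochondrial genes in batch A (1.69%) and 0 in batch B (0%), with mt-Rnr1 at an adjusted p of 0.058 in batch A, and 1 of 6 oocyte numbers in batch A and 0 of 10 in batch B correlated best with their own number. The share ratio in batch A was 1.55 (1.45 to 1.67 without single oocytes, 1.52 by HTSeq, 1.67 without nuclear rRNA, 1.57 with copies, 2.00 for the mRNAs over a total without mt rRNAs). In batch B it was 0.759 (0.738 to 0.799 without single oocytes, 0.714 to 0.775 otherwise). Per ERCC count it was 1.11 (1.05 to 1.22 without single oocytes, 1.04 by HTSeq). The order of the mRNAs kept 51 of 78 pairs by HTSeq, 76 with lengths less shared bases and 69 with copies added.

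For single named genes, 488 of 638 values in batch A kept direction and side of the threshold, 86 lost the call, 10 gained it and 54 changed sign. In batch B 690 of 716 kept both and 26 changed sign, none of them called. In the difference of changes 201 of 244 kept both, 17 lost the call, 9 gained it and 17 changed sign. Scaling to mt mRNA counts sets the sum of the 13 mRNAs equal between oocytes, and it turned more signs than any other single alternative. The log2 changes that turned in batch A were -0.54 for mt-Rnr1, -0.51 for mt-Rnr2, -0.0583 for mt-Nd1, -0.21 for mt-Co1, -0.0294 for mt-Co2, -0.0897 for mt-Atp6, -0.38 for mt-Co3, -0.0787 for mt-Nd6, -1.18 for mt-Ta, -0.80 for mt-Ts1, -0.46 for Gm29216, -0.59 for Gm28661 and -1.11 for Gm28437, and the other 7 mRNAs had positive changes, from 0.0409 for mt-Atp8 to 0.64 for mt-Nd4l. In batch B they were 0.17 for mt-Rnr1, 0.14 for mt-Rnr2, 0.0635 for mt-Nd1, 0.15 for mt-Nd2, 0.11 for mt-Atp8, 0.15 for mt-Nd4, 0.0849 for mt-Nd5, 0.23 for mt-Nd6, 0.38 for Gm10925, 0.15 for Gm29216 and 0.0424 for Gm10222. The differences of changes were -0.72 for mt-Rnr1, -0.65 for mt-Rnr2, -0.12 for mt-Nd1, -0.14 for mt-Co1, -0.0183 for mt-Co2, -0.0750 for mt-Atp8, -0.99 for mt-Co3, -0.31 for mt-Nd6, -0.00994 for mt-Ts1, -0.78 for mt-Tc, -0.23 for Gm10925, -0.60 for Gm29216, -0.48 for Gm28661 and -0.66 for Gm28437. With ERCC scaling those that turned in batch A were -0.0586 for mt-Rnr1, -0.0183 for mt-Rnr2, -0.68 for mt-Ta, -0.22 for mt-Ts1, -0.31 for Gm28437, -0.37 for Mtpap, -0.33 for Pnpt1, -0.69 for Polg and -0.000335 for Tfb2m. With copies added as well they were -0.0586 for mt-Rnr1, -0.0183 for mt-Rnr2, -0.68 for mt-Ta and -0.22 for mt-Ts1, and with HTSeq counts scaled to ERCC counts -0.0562 for mt-Rnr1, -0.0217 for mt-Rnr2, -0.43 for mt-Ta, -0.27 for Gm29216 and -0.28 for Gm28437. Total counts gave -0.0498 for mt-Ta and -0.0902 for Gm28437, and no filter -0.00699 for Polg. HTSeq counts gave 0.16 for mt-Te and 0.18 for mt-Tc in batch A and differences of 2.08 for mt-Te, 0.80 for mt-Ta and 1.55 for mt-Ti. In batch B mt-Co3 was at -0.55 with HTSeq counts, -0.82 with these and without MI oocytes 4, 8 and 9, -0.43 without these oocytes alone and -0.55 with copies added. Leaving out single oocytes gave -0.37 to 0.0222 for mt-Te, -0.10 to 0.47 for mt-Ta, -0.48 to 0.0838 for mt-Tc, -0.26 to 0.27 for mt-Ti and -0.24 to 1.18 for Gm28437 in batch A, and -0.11 to 0.42 for mt-Co3 and -0.38 to 0.0604 for Gm10925 in batch B. The cause of these differences between scalings was not tested. In batch B RSEM gave mt-Nd3 and mt-Nd4l few or no counts and HTSeq counted them in nearly all oocytes.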
